A study of Homo sapiens with 18 samples.

Results

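*SRSF1*, *SRSF2*, *SRSF3*, *SRSF4*, *SRSF5*, *SRSF6*, *SRSF7*, *SRSF11*, *TRA2A* and *TRA2B* are 10 genes for SR and SR-like splicing factors, taken here by name from a list of genes held to set their own level through poison exons, out of 57500 genes counted in each library. The rule itself uses no measured value, although it was written with earlier results of these data known, and all 10 genes passed the filter on low counts in every comparison. SR proteins carry an RNA recognition motif and a tail rich in arginine-serine dipeptides, bind enhancer sequences in exons, and help the spliceosome recognise nearby splice sites. A poison exon is a stretch with an early stop codon: when the protein is plentiful its own transcript tends to take up the exon, and nonsense-mediated decay then removes that transcript. Levels of these genes are therefore tied to splicing as well as to transcription, in dividing tumour cells as in other cells.

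RNA was sequenced from 18 libraries of 2 human cell lines, ES8 (Ewing sarcoma) and Rh30 (alveolar rhabdomyosarcoma), with 3 libraries in each of 6 groups. All cells expressed dCas9-KRAB, a repressor that a guide RNA brings to a promoter, and all had spent 72 h in puromycin after the guide was introduced. In each line, parental cells received either a control guide (sgCTL) or a guide against *DNAJC17* (sgDNAJC17), an essential HSP70 co-chaperone whose loss the study linked to splicing. The third group was a separate stable population expressing 3xFLAG-DNAJC17-dRRM, an allele without the RNA recognition motif (ΔRRM cells), in which sgDNAJC17 silenced the endogenous gene. Not analysed here are ΔRRM cells with sgCTL, so the allele and the separate derivation of these cells cannot be told apart. The 3 libraries of a group, lettered A to C, came from cells plated in triplicate, so p-values measure the spread between wells. Totals ran from 35342393 to 48245989 counts. *DNAJC17* itself was at 11.2 to 12.4 CPM, the read count scaled to library size after TMM adjustment, with sgCTL and 1.56 to 1.96 CPM with sgDNAJC17 in ES8, and at 10.8 to 11.9 CPM and 2.20 to 2.72 CPM in Rh30. Its reads in ΔRRM cells, 283 to 367.5 CPM, include those of the introduced allele. All 4 ES8 markers (*NR0B1*, *NKX2-2*, *STEAP1* and *CCND1*) were higher in ES8 controls, and *MYOD1*, *MYOG* and *DES*, 3 of 4 Rh30 markers, were higher in Rh30 controls, while *MYCN* was lower there (-1.19 on the log2 scale). Gene counts do not separate productive transcripts from those meant for decay, and in bulk RNA fewer cells and less RNA per cell cannot be told apart.

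Annotated decay transcripts were found for all 10 genes, 24 of 118 transcripts in GENCODE v44. For 6 of the genes an early stop lies in an exon that no annotated coding transcript of the gene uses. These stops are printed because they are the feature the 10 genes were listed for. *SRSF3*, *SRSF7* and *SRSF11* have further exons of this kind, and for each gene the longest is printed. In each line the 29 bases run 5′ to 3′ on the sense strand, the capitals mark the stop codon, and the exon is placed on GRCh37, the build of the reference used for sequence. The files' own gene positions are on GRCh38.
SRSF3 (SRSF3-203, exon chr6:36567598-36568053, + strand): tctcaccaccctcTGAatctgcattagcc
SRSF4 (SRSF4-205, exon chr1:29492402-29492576, - strand): cttacaaggaaaaTGAgtgaatgtgggaa
SRSF6 (SRSF6-202, exon chr20:42087793-42088060, + strand): agccttttgccatTAGacgcagggtgatg
SRSF7 (SRSF7-204, exon chr2:38976040-38976488, - strand): gagtcagtcgcctTGAttcagaatgtcac
SRSF11 (SRSF11-212, exon chr1:70697542-70697658, + strand): agcttttgaaagtTGAgagcacacccctg
TRA2B (TRA2B-205, exon chr3:185649365-185649640, - strand): gctcaggaataagTGAagctgaaatttga

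The printed poison exon of *SRSF3* is 456 bases long and ends the reading frame after 124 residues, against 164 residues in the full protein. That of *SRSF7* is 449 bases long and stops translation after 137 of 238 residues, and that of *SRSF6* is 268 bases long and stops it after 135 of 344. In *TRA2B* the exon of 276 bases is the second of the transcript and leaves 38 of 288 residues, the shortest product of the 6. The exon of *SRSF4* (175 bases) leaves 160 of 494 residues and that of *SRSF11* (117 bases) leaves 128 of 484. An exon entry of the same length was present in the counted gene model for all 6 genes, so reads on these exons could enter the gene counts. In *SRSF1*, *SRSF5* and *TRA2A* every exon that holds such a stop is partly or wholly shared with coding transcripts. The 2 annotated decay transcripts of *SRSF2* stop after 221 residues, as many as the main protein has, so no early stop is annotated in them. The total exon length counted equalled that of GENCODE v44 for *SRSF3* (7118 bases), *SRSF5*, *SRSF7*, *SRSF11* and *TRA2A*, 5 of the 10 genes.

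Control cells set the scale for the comparisons that follow, and the lines shared a similar order of levels. Between genes, levels are given as CPM per kilobase of counted exon. *SRSF1*, a founding member of the family that promotes exon inclusion, was highest with 109 ± 2.7 CPM per kb in ES8 and 97.2 ± 2.5 in Rh30 (SD, n = 3). *SRSF2* followed with 74.8 ± 2.8 and 58.8 ± 1.6 CPM per kb. In ES8, *SRSF3* (50.3 ± 2.9 CPM per kb), the smallest SR protein, and *SRSF7* (49.5 ± 1.3), its close relative, had overlapping libraries and could not be ordered. In Rh30, *SRSF2*, *SRSF7* (57.2 ± 4.5) and *SRSF3* (50.2 ± 2.9) overlapped with their neighbours in the order. *SRSF6* stood at 46.2 ± 1.9 and 40.5 ± 2.1 CPM per kb. The remaining 5 genes lay lower, from *TRA2B* (21.1 ± 0.26 CPM per kb in ES8 and 21.1 ± 1.1 in Rh30) down to *SRSF11* (6.99 ± 0.28 and 12.3 ± 0.62). The plot of levels per length in the control libraries shows the same break after *SRSF6*. This order and the break depend on the length used, which is that of all counted exons. For *TRA2B* it is 11769 bases against 4178 in the main annotated transcript, and for *SRSF1* 3340 against 5343. In ES8 CPM, without length, *TRA2B* (248) lay above *SRSF2* (226), *SRSF6* (212) and *SRSF7* (200), and below *SRSF1* (364) and *SRSF3* (358). An order by transcript length was not tested.

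**Figure D1:**
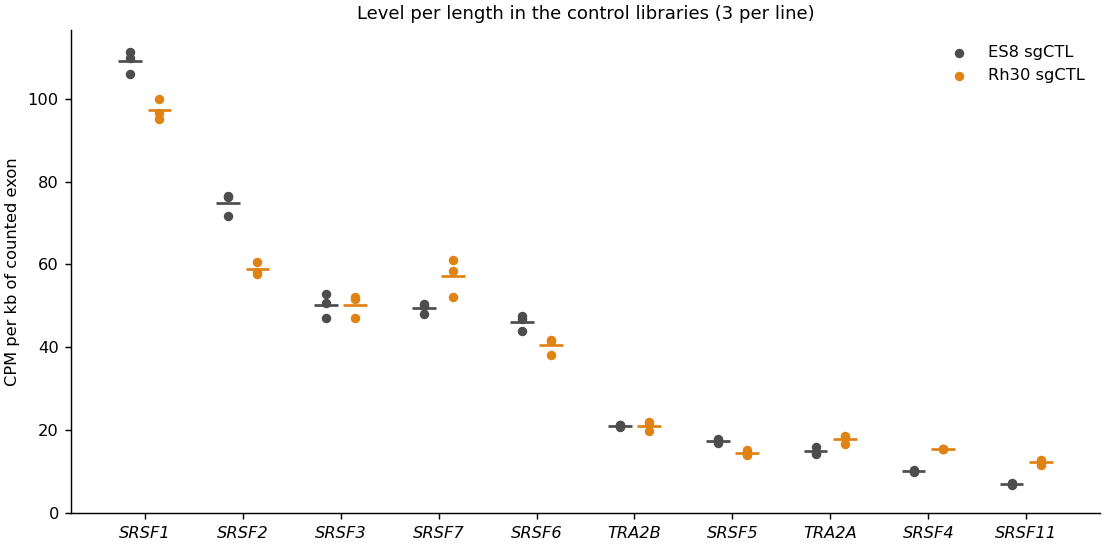
Level of each of the 10 genes in the sgCTL libraries, in CPM per kilobase of counted exon (vertical axis, from 0), ordered by the ES8 mean. Points are single libraries, 3 per line, and short lines are means. *SRSF1* is highest in both lines. *SRSF2* is second in ES8 and overlaps *SRSF7* in Rh30. *SRSF4* and *SRSF11* are visibly higher in Rh30.

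Between the control groups of the lines, *SRSF11* and *SRSF4* were higher in Rh30 under every scaling tried, and with TMM they differed most of the 10. *SRSF11*, an SR-related splicing factor, was at 57.2, 58.6 and 61.8 CPM in ES8 and 98.3, 105 and 109 CPM in Rh30, a log2 difference of 0.79 ± 0.05 (SE; adjusted p = 5.28e-18). *SRSF4*, the longest protein of the 10, was at 88.8 to 91.9 CPM in ES8 and 137 to 138 CPM in Rh30 (0.58 ± 0.05, adjusted p = 5.41e-15). The libraries of the lines did not overlap for either gene. Of the 10 genes, 4 were called higher and 4 lower in Rh30 at an adjusted p under 0.05 in edgeR's quasi-likelihood test, against 42.0% and 45.5% of all genes tested. *SRSF2* (-0.37 ± 0.05), *SRSF5* (-0.29 ± 0.05), *SRSF6* (-0.22 ± 0.05) and *SRSF1* (-0.19 ± 0.04) were lower in Rh30. *TRA2A* and *SRSF7* were called higher (0.23 and 0.18), but scaling by library size alone gave 0.01 and -0.03, and the GC and length correction 0.06 and 0.07, without a call. Library size alone moves the median gene by -0.21 in this comparison. With it *SRSF2* (-0.59) differed most, *SRSF5* (-0.50) and *SRSF6* (-0.43) exceeded *SRSF4* (0.37) in size, *SRSF11* was at 0.57, and *SRSF3* (-0.24) and *TRA2B* (-0.24) were called lower.

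In ES8, knockdown of *DNAJC17* raised *TRA2A*, *SRSF3*, *SRSF1*, *SRSF7* and *SRSF4*, all by less than 2-fold, and lowered none of the 10 genes (0 at an unadjusted p under 0.05, and 0 by DESeq2). *TRA2A*, which with *TRA2B* binds GAA-rich enhancers, was at 51.1, 50.2 and 56.0 CPM with sgCTL and at 70.4, 82.0 and 80.5 CPM with sgDNAJC17. All 3 knockdown libraries lay above all 3 controls, and the fold change was 1.46 (log2 0.54 ± 0.08, adjusted p = 0.00105). *SRSF1* went from 372, 354 and 367 CPM to 432, 470.1 and 474 CPM (log2 0.31 ± 0.05, adjusted p = 0.00304), again without overlap.

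*SRSF3* was at 376, 336 and 361 CPM in the controls and at 386, 517 and 521 CPM after knockdown (log2 0.38 ± 0.10, adjusted p = 0.0213). Library A of the knockdown lay close to the controls, and libraries B and C well above them. *SRSF7* (log2 0.20 ± 0.05, adjusted p = 0.0184) and *SRSF4* (0.18 ± 0.06, adjusted p = 0.0468) changed by small amounts. Calls for *SRSF3*, *SRSF4* and *SRSF7* were lost without any single control library or without knockdown library B, which left *TRA2A* and *SRSF1*, 2 genes. *SRSF3* and *SRSF4* were also lost without knockdown library C, whereas without knockdown library A all 3 calls stood (log2 0.51, 0.22 and 0.175 for *SRSF3*, *SRSF4* and *SRSF7*).

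The other 5 genes did not pass in ES8. *SRSF11* had a log2 difference of 0.15 ± 0.08 (adjusted p = 0.231), *TRA2B* 0.09 ± 0.05, *SRSF6* 0.03 ± 0.05, *SRSF2* -0.01 ± 0.09 and *SRSF5* -0.12 ± 0.08. After the GC and length correction *SRSF11* (0.31, adjusted p = 0.000174) and *TRA2B* (0.28, adjusted p = 0.000912) were called as well, making 7 genes higher. Knockdown library A was the lowest of its group for *SRSF1*, *SRSF2*, *SRSF3*, *SRSF4*, *SRSF5*, *SRSF6*, *SRSF11*, *TRA2A* and *TRA2B*. *SRSF2* shows the gap clearly, with 194 CPM in library A and 240.4 and 249 CPM in B and C, against 216 to 231 CPM in the controls. Without library A, 8 genes were called higher, with *SRSF11* (0.23), *TRA2B* (0.11) and *SRSF2* (0.09) added. Counted over all 6 libraries, 5 of 10 genes were called higher and 0 lower, where 13.6% of all genes were called higher and 13.8% lower. None of the 10 reached a 2-fold change, which 1.95% of genes did. The median log2 difference was 0.16 over the 10 genes and -0.02 over all genes.

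**Figure D2:**
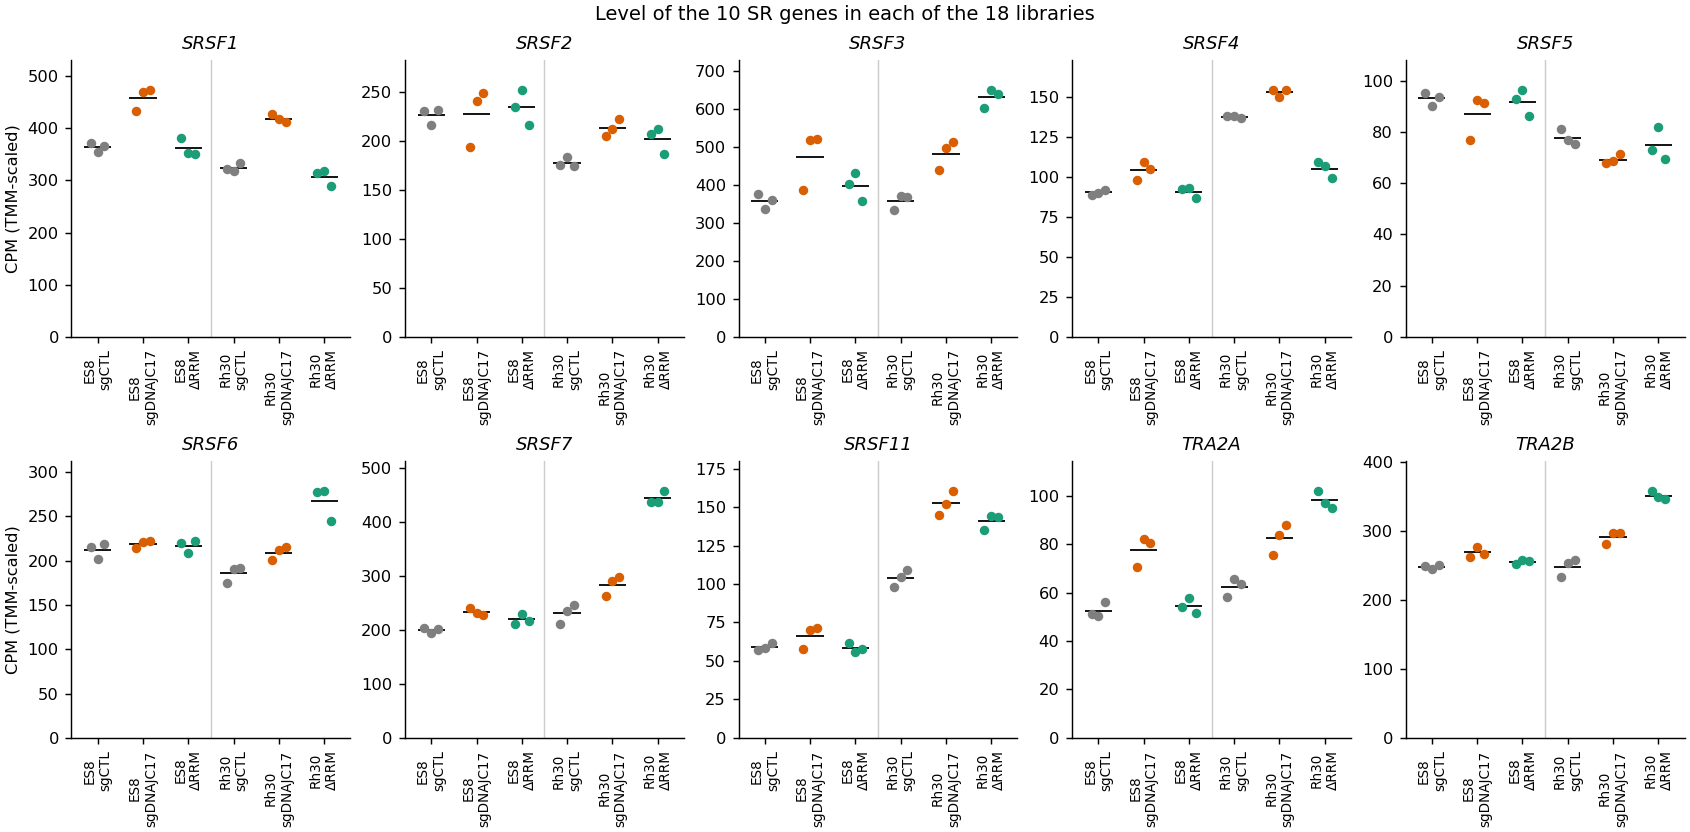
TMM-scaled CPM (vertical axes, from 0, with a scale for each gene) of the 10 genes in the 18 libraries. Each point is a library, horizontal lines are group means, and the grey vertical line parts ES8 from Rh30. In Rh30, *SRSF3*, *SRSF6*, *SRSF7*, *TRA2A* and *TRA2B* are lowest with sgCTL and highest in ΔRRM cells, while *SRSF1* and *SRSF4* are highest after knockdown.

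In Rh30, knockdown raised 9 of the 10 genes and *SRSF5* was the exception. *SRSF11* changed most, from 98.3, 105 and 109 CPM with sgCTL to 145, 152 and 161 CPM with sgDNAJC17, a fold change of 1.48 (log2 0.57 ± 0.07, adjusted p = 6.32e-05). *SRSF3* went from 334, 372 and 367 CPM to 438, 496.5 and 512 CPM (0.45 ± 0.07, adjusted p = 0.000632). *TRA2A* went from 58.4, 65.6 and 63.5 CPM to 75.7, 83.9 and 87.9 CPM (0.42 ± 0.07, adjusted p = 0.00107). For all 3 genes the lowest knockdown library exceeded the highest control.

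*SRSF1* was at 322, 318 and 334 CPM in Rh30 controls and at 427, 418 and 411 CPM after knockdown (0.38 ± 0.06, adjusted p = 0.000312). *SRSF7* (0.31 ± 0.07), *SRSF2* (0.28 ± 0.06) and *TRA2B* (0.25 ± 0.06) passed with adjusted p of 0.00524, 0.00354 and 0.00773. *SRSF6* (0.19 ± 0.06) and *SRSF4* (0.17 ± 0.06) passed narrowly, with adjusted p of 0.0365 and 0.0358. Both of these calls were lost under scaling by library size, without a low count filter and in a fit of all 18 libraries. *SRSF6* was lost also when GC and length were corrected for. Leaving out any single control library, or knockdown library B or C, also removed both calls. *TRA2B* lost its call without control library A (adjusted p = 0.0501 in edgeR). *SRSF5* was at 81.0, 76.8 and 75.3 CPM in the controls and at 67.7, 68.6 and 71.2 CPM after knockdown. Its log2 difference of -0.15 ± 0.06 did not pass (adjusted p = 0.0759) although the groups did not overlap.

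The Rh30 counts of 9 higher and 0 lower by edgeR (DESeq2 gave 9 and 0, and 1 gene was lower at an unadjusted p under 0.05) compare with 16.1% and 16.2% of all genes, and again none of the 10 was among the 1.55% of genes called at 2-fold. With the replicate letter as a block the same 9 genes were called and *SRSF5* was called lower (-0.15, adjusted p = 0.00791). The median log2 difference of the 10 genes was 0.30, against 0.0045 over all genes. Markers of another cell type moved in the same Rh30 libraries. The sum of 10 epithelial markers was 1.17 to 1.60 CPM in Rh30 controls, where *CLDN7* and *RAB25* had 0 counts. It was 12.6 to 18.5 CPM with sgDNAJC17 and 13.8 to 16 CPM in ΔRRM cells. Only 4 of the 10 markers passed the low count filter in each comparison with sgCTL, and all 4 were called higher. *KRT19* (2 to 7 counts in controls) and *CDH1* (1 to 2) could pass only through the groups where they were high. These 4 calls are therefore not a test of the 10 markers. In ES8 the sum was 34.3 to 36.3, 34.5 to 39.9 and 40.2 to 44.6 CPM. The markers did not move alike in Rh30. Mean *KRT8* went from 0.853 CPM in controls to 9.51 CPM after knockdown. *EPCAM* overlapped its controls (0.0272 to 0.268 CPM after knockdown, 0.0705 to 0.222 CPM in controls). The part of these markers in the SR gene levels was not tested.

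The response to knockdown was compared between lines in an interaction fit of 12 libraries. By edgeR without a block, 1 of the 10 genes differed: *SRSF11*, with a rise larger in Rh30 by 0.45 ± 0.11 on the log2 scale (adjusted p = 0.0122), where 5.23% of genes had a higher and 4.55% a lower response. Without Rh30 control library A this difference was 0.35 with an adjusted p of 0.0926, and after the GC and length correction it was 0.25 (adjusted p = 0.0239). *SRSF2*, called in Rh30 alone, had a difference of 0.32 ± 0.11 that did not pass (adjusted p = 0.0600), but it was called with the replicate block (adjusted p = 0.0422) and after the GC and length correction (0.27, adjusted p = 0.0155), and DESeq2 called 2 genes. That correction also gave *TRA2A* a smaller response in Rh30 (-0.23, adjusted p = 0.0283). For *SRSF3* (0.09 ± 0.13), *SRSF1* (0.10 ± 0.08) and *TRA2A* (-0.10 ± 0.11) the standard errors were as large as the differences or nearly so.

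**Figure D3:**
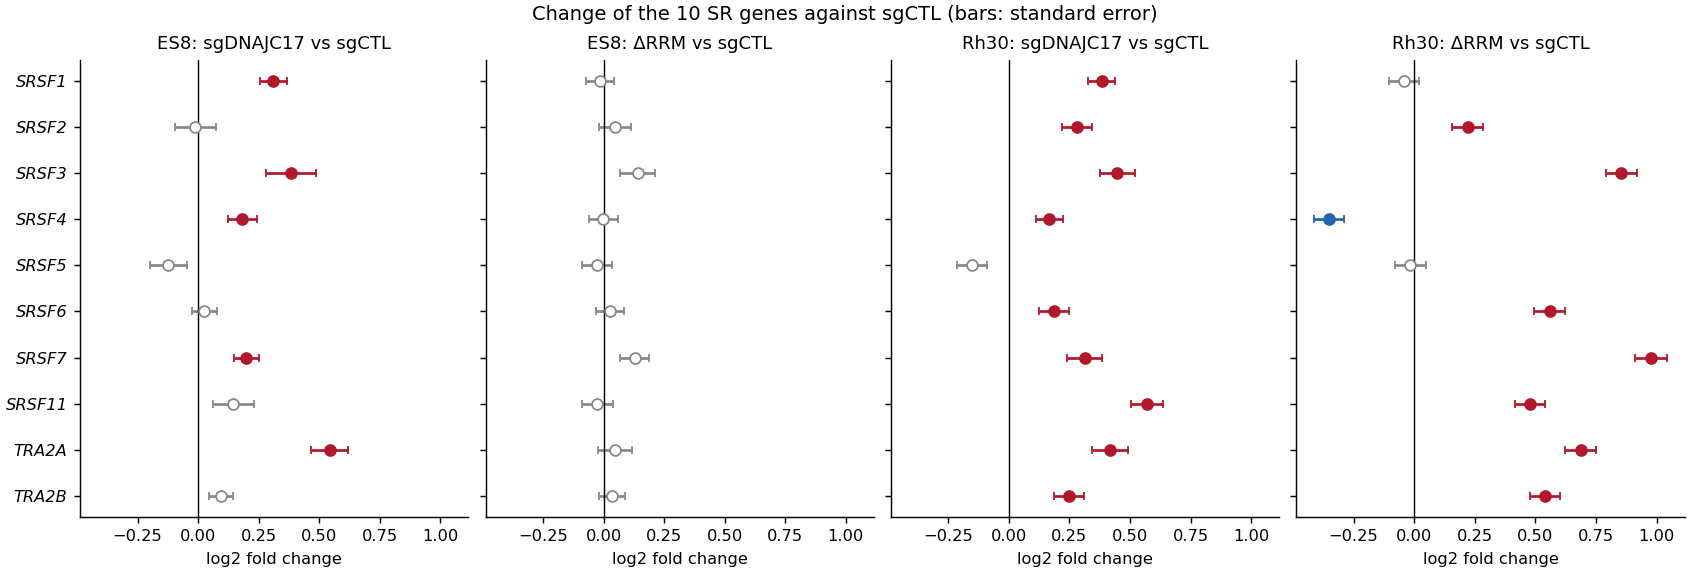
Log2 fold change of the 10 genes (horizontal axis, 0 marked) for sgDNAJC17 and ΔRRM cells, each against the sgCTL libraries of its line. Points carry standard errors from edgeR, red is called higher, blue called lower, and open grey is not called at an adjusted p under 0.05. The 2 comparisons within a line share their 3 control libraries.

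ES8 ΔRRM cells resembled their controls for these genes. Values ran from 54.0, 57.7 and 51.5 CPM for *TRA2A* to 401, 432 and 356 CPM for *SRSF3*, and log2 differences from sgCTL lay between -0.03 (*SRSF5*) and 0.14 ± 0.07 (*SRSF3*). None of the 10 genes was called by edgeR, and 1 of them, *SRSF7* (0.13 ± 0.06), had an unadjusted p under 0.05, of 0.0494. DESeq2 called 0 as well. Over all genes, 0.0930% were called higher, 0.0814% lower and 0.0349% at 2-fold. The standard errors, 0.05 to 0.07, set the size of change that these libraries could have shown.

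Against the ES8 knockdown group, which is the comparison that shares the sgDNAJC17 libraries, *TRA2A* (-0.49 ± 0.09, adjusted p = 0.00639) and *SRSF1* (-0.32 ± 0.08, adjusted p = 0.0218) were lower in ΔRRM cells. *TRA2A* libraries did not overlap between the groups, with 51.5 to 57.7 CPM against 70.4 to 82.0. *SRSF1* libraries did not overlap either, with 349.9 to 382 CPM against 432 to 474. These were 2 genes lower and 0 higher, against 7.36% and 7.35% of all genes, with 0 of the 10 at 2-fold (1.97% of genes). The call for *SRSF1* was lost without ΔRRM library C or without knockdown library B or C (adjusted p up to 0.114), and 4 genes were called lower without knockdown library A, when *SRSF3* (-0.36) and *SRSF11* (-0.25) were added. The GC and length correction gave 5 genes lower, with *SRSF3* (-0.27), *SRSF4* (-0.22) and *SRSF11* (-0.23) added.

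In Rh30 ΔRRM cells *SRSF7*, *SRSF3*, *TRA2A*, *SRSF6*, *TRA2B*, *SRSF11* and *SRSF2* were higher than with sgCTL and *SRSF4* was lower. *SRSF7*, a shuttling SR protein with a zinc knuckle, was at 437, 437 and 458 CPM, against 211, 236 and 247 CPM with sgCTL and 264, 290.1 and 298.5 CPM with sgDNAJC17. Its log2 difference from sgCTL was 0.98 ± 0.07 (adjusted p = 2.37e-20), a fold change of 1.97. *SRSF3* was at 603, 650.2 and 638 CPM (0.86 ± 0.07, adjusted p = 6.30e-18). Both genes thus had 3 groups without overlap, in the order sgCTL, sgDNAJC17, ΔRRM.

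*TRA2A* reached 102, 97.0 and 95.2 CPM (0.69 ± 0.06), *SRSF6* 277, 279 and 245 CPM (0.56 ± 0.06) and *TRA2B* 358, 348 and 346.5 CPM (0.54 ± 0.06). *SRSF11*, at 135, 144 and 143 CPM, was above control (0.48 ± 0.06), and its libraries lay just below those of the knockdown group. *SRSF2* was called higher on the default scale (0.22 ± 0.06, adjusted p = 0.00155), but its direction was not stable, with -0.02 under scaling by library size and -0.04 after the GC and length correction. *SRSF2* also shares 1106 of its 3017 exonic bases with *MFSD11* on the opposite strand, whose own log2 difference was 0.16 (adjusted p = 0.0989).

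*SRSF4* went the other way, with 109, 107 and 98.9 CPM in Rh30 ΔRRM cells against 138, 138 and 137 CPM with sgCTL (-0.35 ± 0.06, adjusted p = 9.16e-07), and no overlap. It lay below the control level in ΔRRM cells and above it after knockdown, where it stood at 154, 149.7 and 154 CPM. *SRSF1*, at 315, 318.5 and 289 CPM, and *SRSF5*, at 73.0, 82.0 and 69.4 CPM, overlapped their controls, with log2 differences of -0.04 ± 0.06 and -0.02 ± 0.06. Under both other scalings these genes were called lower: *SRSF1* had -0.49 after the GC and length correction (adjusted p = 1.03e-09) and -0.28 by library size, and *SRSF5* had -0.19 and -0.25.

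Against sgCTL, 7 of the 10 genes were higher and 1 lower in Rh30 ΔRRM cells, where 33.8% and 35.0% of all genes were called and 9.97% passed 2-fold. Against sgDNAJC17 in Rh30, 5 genes were higher and 2 lower, next to 29.4% and 30.5% of all genes and 7.79% at 2-fold. *SRSF7* (0.65 ± 0.08), *SRSF3* (0.40 ± 0.08), *SRSF6* (0.36 ± 0.08), *TRA2B* (0.28 ± 0.08) and *TRA2A* (0.26 ± 0.08) were the higher genes of that comparison, and *SRSF4* (-0.53 ± 0.08) and *SRSF1* (-0.44 ± 0.08) the lower. *TRA2A* lost its call after the GC and length correction (0.06) and by library size (0.10), and *TRA2B* by library size (0.12). Under these 2 scalings *SRSF2* (-0.22 and -0.24) and *SRSF11* (-0.17 and -0.27) were called lower, 4 genes in all. The median log2 difference of the 10 genes against sgCTL was 0.51, against -0.01 over all genes.

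The ΔRRM response differed between the lines for 7 of the 10 genes. In the interaction fit, Rh30 exceeded ES8 for *SRSF7* by 0.85 ± 0.09, *SRSF3* by 0.72 ± 0.10, *TRA2A* by 0.64 ± 0.09, *SRSF6* by 0.53 ± 0.09, *TRA2B* by 0.51 ± 0.08 and *SRSF11* by 0.50 ± 0.09. *SRSF4* differed by -0.35 ± 0.08. The 6 higher and 1 lower stand beside 19.9% and 21.5% of all genes. After the correction for GC content and length the 6 genes remained higher, between 0.29 (*SRSF6*) and 0.61 (*SRSF7*), *SRSF4* remained lower (-0.38), and *SRSF1* was added as lower (-0.43).

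Base composition moved with the Rh30 results. The 10 genes are AT-rich, with 36.6% to 45.6% GC in the longest annotated transcript. When all genes were sorted into 5 bins of GC content, the median log2 difference of Rh30 ΔRRM cells from sgCTL fell from 0.35 in the lowest bin to -0.415 in the highest, and that of the Rh30 knockdown from 0.12 to -0.18. In ES8 the medians of the GC bins lay between -0.07 and 0.03 for knockdown. Sorted by exon length, the medians fell from the shortest bin to the longest in both lines. They fell from 0.355 to -0.321 in Rh30 ΔRRM cells, from 0.11 to -0.109 in the Rh30 knockdown and from 0.103 to -0.115 in the ES8 knockdown. *SRSF4*, *SRSF11* and *TRA2B* lie in the longest bin. The correction takes out GC and length together, so their parts were not separated. In Rh30 ΔRRM cells *SRSF7* (0.71), *SRSF3* (0.78), *TRA2B* (0.69), *SRSF11* (0.37), *TRA2A* (0.35) and *SRSF6* (0.30) were still called higher after the correction, 6 genes, and 3 were lower. In the Rh30 knockdown 8 were higher and *SRSF5* was lower (-0.24). Scaling by library size alone shifts the median gene by -0.24 for Rh30 ΔRRM against sgCTL and by -0.16 against sgDNAJC17, and it also gave 6 genes higher and 3 lower against sgCTL.

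**Figure D4:**
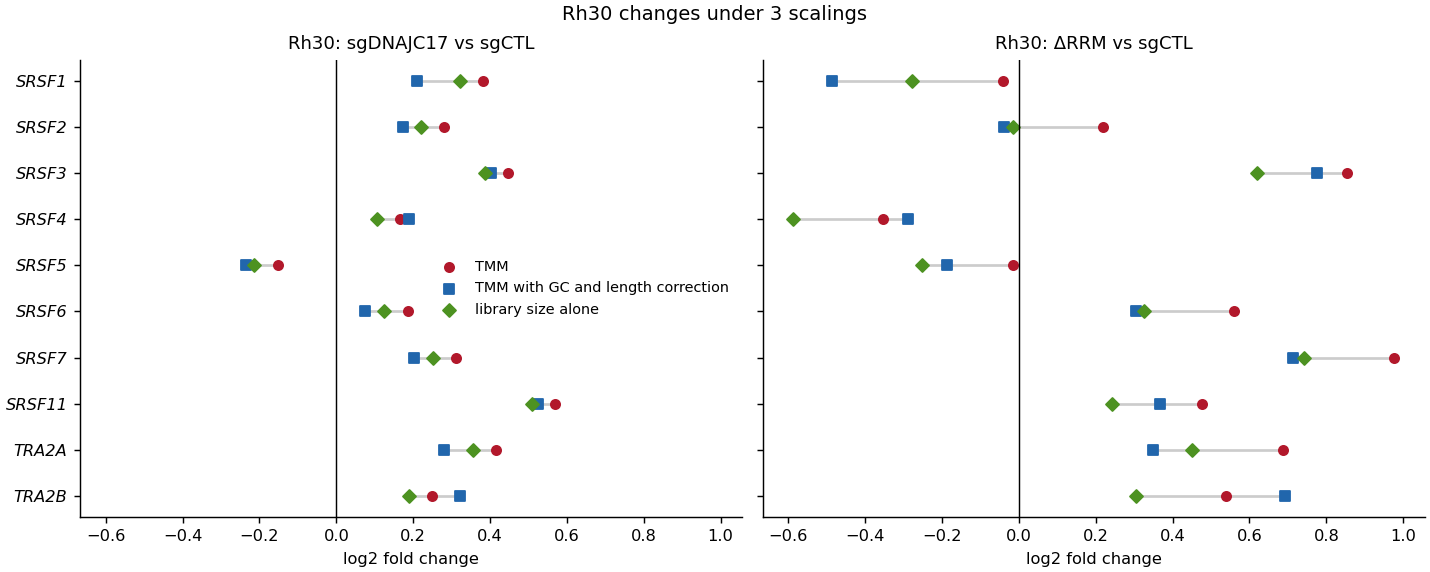
Log2 fold change in Rh30 of the 10 genes (horizontal axis, 0 marked) with TMM scaling (circles), TMM corrected for GC and exon length (squares) and scaling by library size alone (diamonds). After knockdown all 10 genes keep their side of 0 under these 3 scalings. For ΔRRM cells *SRSF2* crosses it, and *SRSF1* and *SRSF5* move from near 0 to below it.

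The shares of all reads taken by the 10 genes together are raw counts over the library total, and so amount to scaling by library size alone. They were 0.178% to 0.185% of counts in Rh30 controls, 0.210% to 0.227% with sgDNAJC17, and in ΔRRM cells 0.213% to 0.228%. The knockdown and ΔRRM libraries both lay above the controls and overlapped each other. In ES8 the shares were 0.208% to 0.219%, 0.214% to 0.252% and 0.2125% to 0.225%, with all 3 groups overlapping. With TMM the Rh30 sums were 1827 to 1956 CPM (sgCTL), 2258 to 2429 CPM (sgDNAJC17) and 2570 to 2674 CPM (ΔRRM), without overlap. The ES8 sums were 1836 to 1938, 2032 to 2312 and 1900 to 2037 CPM in the same order, and knockdown did not overlap sgCTL. Whether the groups overlap thus depends on the scaling. Within the sum the make-up changed in Rh30 ΔRRM cells. Per kilobase, *SRSF7* ran at 1.13 to 1.31 times *SRSF1* there, but at 0.541 to 0.614 times with sgCTL and 0.510 to 0.599 times with sgDNAJC17. The ratio of *TRA2A* to *TRA2B* per kilobase rose from 0.688 to 0.750 in ES8 controls to 0.899 to 1.01 after knockdown without overlap, and was 0.675 to 0.751 in ES8 ΔRRM cells. In Rh30 it also rose without overlap, from 0.826 to 0.869 in controls to 0.902 to 0.994 after knockdown. Rh30 ΔRRM cells, at 0.920 to 0.955, stayed above their controls. These ratios carry no correction for GC and length. After it, *TRA2A* rose more than *TRA2B* in the ES8 knockdown (log2 0.57 against 0.28). It did not in the Rh30 knockdown (0.28 against 0.32) or in Rh30 ΔRRM cells (0.35 against 0.69).

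Other genes of the SR pathway were described from lists chosen with earlier results known. Among 4 further SR proteins, 0 passed in the ES8 knockdown by edgeR, with 2 at an unadjusted p under 0.05, and *SRSF8* (0.26) and *SRSF10* (0.19) rose in the Rh30 knockdown. Of 15 proteins with arginine-serine regions outside the SR family, 9 rose and 0 fell in the ES8 knockdown, and 8 rose and 0 fell in Rh30 (0 and 1 fell at an unadjusted p under 0.05). Beside these list counts, the shares over all genes were 13.6% higher and 13.8% lower after ES8 knockdown, 16.1% and 16.2% after Rh30 knockdown, and 33.8% and 35.0% for Rh30 ΔRRM cells against sgCTL. *SON*, a scaffold of nuclear speckles, and *RNPS1*, a part of the exon junction complex, had log2 differences of 0.43 and 0.35 in ES8. *RBM39* (0.76) and *LUC7L* (0.49), both splicing factors, led in Rh30. In Rh30 ΔRRM cells against sgCTL, 9 of the 15 fell and 2 rose, with a median of -0.23, while the median of the 10 SR genes was 0.51. All list values are on the TMM scale, without the GC and length correction. In this comparison the medians of the GC bins over all genes ran from 0.35 to -0.415. The part of GC content and length in the contrast between lists was not tested.

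SR proteins are phosphorylated by SRPK and CLK kinases and carried into the nucleus by transportins. Of 9 such genes, 1 rose and 3 fell in the ES8 knockdown, and 3 rose and 2 fell in Rh30. *SRPK1* fell by 0.53 and *CLK3* rose by 0.35 in ES8. *SRPK3* fell by 0.47 and *CLK2* fell by 0.41 in Rh30. Of 14 genes for nonsense-mediated decay and the exon junction complex, 4 rose and 1 fell in ES8, and 3 rose and 4 fell in Rh30. *SMG8* rose in both lines (0.39 and 0.29), *SMG1*, the kinase of the decay factor *UPF1*, fell by 0.48 in ES8, and *RBM8A* rose by 0.31 in Rh30. In Rh30 ΔRRM cells 10 of the 14 decay genes fell and 2 rose against sgCTL, with a median of -0.50, again without the GC and length correction.

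**Figure D5:**
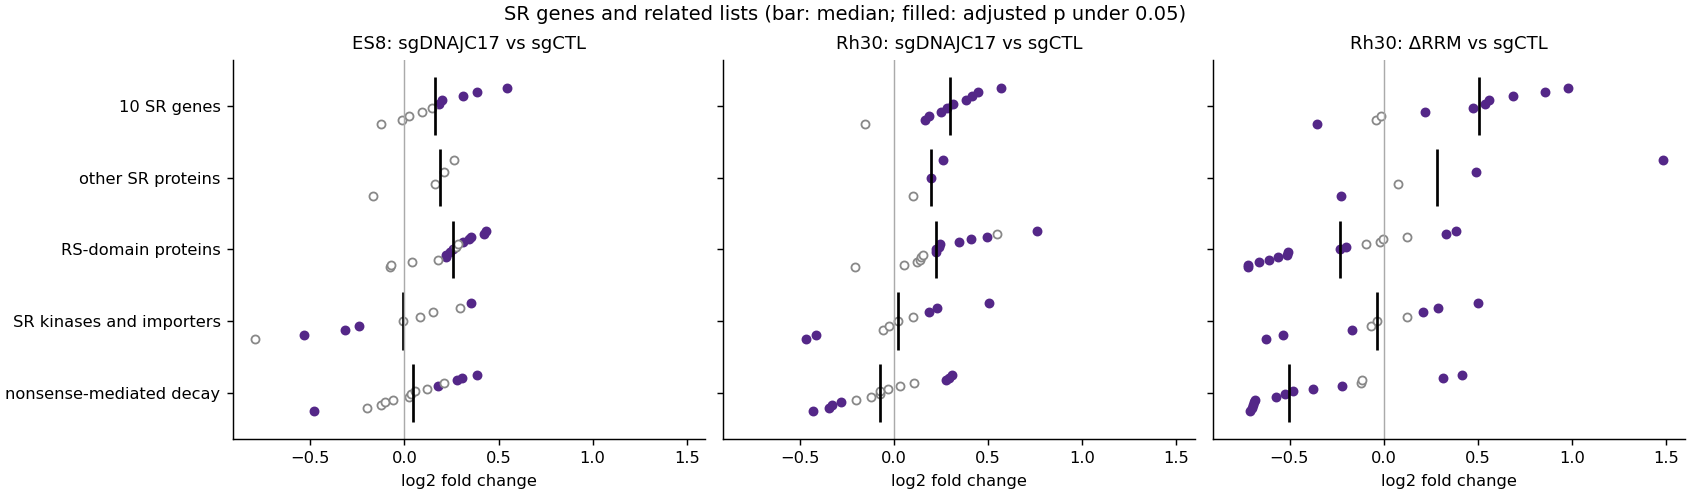
Log2 fold change (horizontal axis) of the 10 SR genes and of the genes of 4 related lists in 3 comparisons, without the GC and length correction. Each point is a gene, filled when called at an adjusted p under 0.05, and the vertical bar is the median of the list. In Rh30 ΔRRM cells the medians of the RS-domain and decay lists lie below 0 and that of the 10 SR genes above it.

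The 10 genes did not move as a block across the 18 libraries. With log2 CPM centred within each line, *SRSF3* (Pearson r = 0.96), *TRA2A* (0.945), *SRSF11* (0.885) and *TRA2B* (0.88) followed the mean of the 10 most closely, *SRSF7* (0.789), *SRSF6* (0.78) and *SRSF2* (0.696) less so, and *SRSF1* (0.403), *SRSF4* (-0.109) and *SRSF5* (-0.178) least. Each gene is part of the mean it was set against, and the points share groups and depth. Among 12563 genes averaging 100 counts or more, the 5 outside the list with the highest r to that mean were *EIF2S1* (0.984), *C11orf58* (0.975), *ATP6V1G1* (0.974), *NGRN* (0.973) and *ZC3H15* (0.971). *EIF2S1*, a subunit of the initiation factor eIF2, had a log2 difference of 0.47 in the Rh30 knockdown and 0.62 in Rh30 ΔRRM cells. In the ES8 knockdown it had 0.22 and was not called (adjusted p = 0.0778 in edgeR). It was picked for its r in these same 18 libraries, so these values are no separate evidence.

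Reads shared with neighbours limit *SRSF1* and *SRSF2* most. *SRSF1* (GRCh38 chr17:58003360-58007346, - strand) shares 440 of 3340 exonic bases with ENSG00000279069 on the opposite strand, which held 118 to 319 counts a library against 8458 or more for *SRSF1*. It shares another 331 bases with ENSG00000266086 on the same strand, which held 0 to 2 counts, and *SRSF4* shares 169 bases with ENSG00000277916 on its own strand, which held 0 counts in every library. *SRSF2* (GRCh38 chr17:76734115-76737374, - strand) overlaps *MFSD11*, with 398 to 1492 counts. Some called results ran in the same direction as the neighbour by edgeR. ENSG00000279069 was higher in the ES8 knockdown (0.42, adjusted p = 0.0145) and lower in Rh30 controls (-0.44, adjusted p = 0.000802). *MFSD11* was lower in Rh30 controls (-1.16, adjusted p = 4.26e-19). Neither was called in any other comparison, and their part in the *SRSF1* and *SRSF2* results was not tested. The strand setting of the counting is not given in the sources used here, so reads on the bases shared with the opposite strand cannot be assigned to either gene, and no strand setting would part those shared on the same strand. *SRSF3*, *SRSF5*, *SRSF6*, *SRSF7*, *SRSF11*, *TRA2A* and *TRA2B* shared no exonic base with another counted gene.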

How the data were processed

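Total RNA from 18 wells was sequenced by the study's contractor. The authors deposited 1 table per library with whole-number counts of reads per gene, without normalization. The submitters' processing notes name Trimmomatic 0.36, STAR 2.5.2b, featureCounts from Subread 1.5.2 and GRCh38, while the study's methods name an older build. In the files 85.3% of 18957 protein-coding genes start within 1 kb of their GRCh38 position, so GRCh38 was used. The length column deposited with the counts served as exon length. Library totals were 35342393 to 48245989 counts, and symbols matched 55082 of 57500 identifiers.

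For differences between groups, edgeR 4.0.16 (R 4.3.3) was run with filterByExpr, TMM and the quasi-likelihood F test, with Benjamini-Hochberg adjustment over all genes tested, and called at an adjusted p under 0.05. A fold change of at least 2 was counted too. Scripts were tested on simulated data. CPM used TMM factors over all 18 libraries, and log2 CPM a prior count of 2. Only the 6 libraries of a comparison entered its fit, or 12 for interactions. Alternatives were DESeq2 1.42.0, other scalings, filters and thresholds, a block for the replicate letter, a joint fit of all 18 libraries, leaving out each library, and a lowess correction (span 0.3) for GC content and exon length. In the Rh30 knockdown, deviations of same-lettered libraries correlated over genes with a mean count of at least 100 (r = 0.576, 0.287 and 0.348). Over all genes tested these correlations were positive but weaker (0.202, 0.0718 and 0.097). The blocked result is therefore given there, and in no other comparison were all 3 letters positively correlated.

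The 10 genes were given by name, without a threshold on any measured value, but they and the related lists were chosen with earlier results of these data known. Named were the 10 genes, DNAJC17, the cell type markers, from each list the 2 genes with the smallest p in each line's knockdown, the 5 genes most like the mean of the 10, and genes that overlap them. Transcripts and stop codons came from GENCODE v44 on GRCh37, and no coordinate was converted. Isoform use was not measured.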

Additional observations from a re-analysis of the deposited data

Results flagged for a closer look

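The following genes differed between the lines in the test of the difference itself, given as Rh30 minus ES8 on the log2 scale. For knockdown against sgCTL, *SRSF11* differed by 0.45, and the call was lost without Rh30 sgCTL library A (adjusted p = 0.0926 in edgeR). For ΔRRM cells against sgCTL, *SRSF7* differed by 0.85, *SRSF3* by 0.72, *TRA2A* by 0.64, *SRSF6* by 0.53, *TRA2B* by 0.51, *SRSF11* by 0.50 and *SRSF4* by -0.35. Each of these 7 remained called when any single library was left out. The ΔRRM populations of the lines were made separately. The epithelial marker sum and the trends with GC content and exon length given above moved in the Rh30 libraries. Their part in these differences was not tested.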

How the results depend on the processing

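No 2-fold change was called for any of the 10 genes, so with that requirement each count of 9 higher, 7 higher, 6 higher, 5 higher, 4 higher, 4 lower, 2 lower or 1 became 0. At an adjusted p under 0.01, 2 genes were higher in the ES8 knockdown, 1 was lower in ES8 ΔRRM against sgDNAJC17 and 0 remained in the knockdown interaction. At an unadjusted p under 0.05, 1 was lower in the Rh30 knockdown, 1 higher in ES8 ΔRRM against sgCTL and 2 in the knockdown interaction. DESeq2 gave 2 in the knockdown interaction. With library size alone, 3 were higher in the ES8 knockdown and 1 lower in the Rh30 knockdown, where *SRSF4* and *SRSF6* also lost their calls. Rh30 ΔRRM cells then had 3 lower against sgCTL, and 3 higher and 4 lower against sgDNAJC17. The line difference had 2 higher, with *SRSF3* and *TRA2B* added as lower, and the ΔRRM interaction had 2 lower. Smaller changes of a count are not all listed here. The GC and length correction, with or without the replicate block, gave 1 lower in the Rh30 knockdown, 3 lower in Rh30 ΔRRM against sgCTL, 4 lower against sgDNAJC17, 5 lower in ES8 ΔRRM against sgDNAJC17, 2 higher and 1 lower in the knockdown interaction and 2 lower in the ΔRRM interaction. A fit of all 18 libraries gave 4 lower in ES8 ΔRRM against sgDNAJC17. The replicate block alone gave 1 lower in the Rh30 knockdown and in ES8 ΔRRM against sgDNAJC17, 2 in the knockdown interaction, and an adjusted p of 0.0869 for *SRSF4* in the ES8 knockdown, and changed no other call. Leaving out a library gave 2 to 8 higher in the ES8 knockdown, 1 to 4 lower in ES8 ΔRRM against sgDNAJC17 and 0 to 2 in the knockdown interaction, and 6 to 9 higher in the Rh30 knockdown. The cause of these moves was not tested.

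Signs changed mostly near 0. With DESeq2 and with its size factors, *SRSF6* had -0.0039 in ES8 ΔRRM against sgDNAJC17 and *SRSF4* -0.0079 in the knockdown interaction, and *SRSF5* had -0.0140 and -0.0142 in the ΔRRM interaction. In the fit of all 18 libraries, *SRSF4* had 0.0061 in ES8 ΔRRM against sgCTL and -0.0540 in the knockdown interaction, *SRSF6* -0.0153 in ES8 ΔRRM against sgDNAJC17, *SRSF2* 0.0120 in the ES8 knockdown and *SRSF5* -0.0334 in the ΔRRM interaction. *SRSF4* in the knockdown interaction had -0.0071 with 10 counts in every library and -0.0209 without a filter, and *SRSF5* had 0.0003 with the replicate block. With library size alone, *SRSF6* had -0.0209 in the ES8 knockdown, *SRSF2* -0.0155 in Rh30 ΔRRM against sgCTL, *SRSF5* -0.0383 against sgDNAJC17, *SRSF2* -0.0401 and *SRSF5* -0.2029 in the ΔRRM interaction, *SRSF4* -0.0302 in the knockdown interaction and *SRSF7* -0.0329 in the line difference. After the GC and length correction, without and with the replicate block, ES8 ΔRRM against sgCTL gave *SRSF2* -0.0001 and -0.0011, *SRSF4* 0.0957 and 0.0913, *SRSF5* 0.0066 and 0.0038 and *SRSF11* 0.0852 and 0.0847. The same fits gave *SRSF6* -0.0478 and -0.0440 in ES8 ΔRRM against sgDNAJC17, *SRSF2* -0.0380 and -0.0395 in Rh30 ΔRRM against sgCTL, and *SRSF2* -0.0317 and -0.0325 and *SRSF5* -0.1716 and -0.1693 in the ΔRRM interaction. They gave *SRSF1* -0.0936 and -0.0914, *SRSF3* -0.0521 and -0.0536 and *SRSF4* -0.0916 and -0.0899 in the knockdown interaction, and *SRSF3* 0.0313 and 0.0304 and *TRA2B* 0.1105 and 0.1087 in the line difference. Over the fits that leave out a library, the ES8 knockdown ran from -0.0054 to 0.0427 for *SRSF6* and -0.0777 to 0.089 for *SRSF2*. ES8 ΔRRM against sgCTL ran from -0.0162 to 0.0245 for *SRSF4*, -0.0038 to 0.0559 for *SRSF6*, -0.0618 to 0.008 for *SRSF11*, -0.0547 to 0.0034 for *SRSF1*, -0.0075 to 0.0961 for *SRSF2* and -0.0627 to 0.0124 for *SRSF5*, and against sgDNAJC17 from -0.0382 to 0.13 for *SRSF2* and -0.0124 to 0.0369 for *SRSF6*. *SRSF5* in Rh30 ΔRRM against sgCTL ran from -0.0849 to 0.0264, and the line difference from -0.0681 to 0.0295 for *SRSF3* and -0.0491 to 0.0256 for *TRA2B*. The knockdown interaction ran from -0.0646 to 0.0371 for *SRSF5*, -0.0215 to 0.17 for *SRSF3* and -0.0481 to 0.0381 for *SRSF4*, and the ΔRRM interaction from -0.055 to 0.0595 for *SRSF5* and -0.0526 to 0.0147 for *SRSF1*. With 2033 or more counts of each gene in every library, the spread between wells and the scaling limit these results more than depth.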
